A study of Mus musculus with 8 samples.

Results

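Collagens are the triple-helical proteins of the extracellular matrix, and their genes were followed here in whole mouse kidneys at embryonic day 16.5. A gene was counted as a collagen if the RefSeq accession of its array probe led to a symbol of the form Col, number, a, number. This gave 63 of the 55681 distinct probes, for 43 of the 20887 genes the array named and 43 of the 44 such symbols in the annotation, and Col12a1 matched no probe. After dim probes were left out, 36 collagen genes remained among 13987 tested genes: 11 fibrillar collagens, 9 of basement membranes and 16 others. Col6a5, Col8a1, Col9a3, Col10a1, Col17a1, Col19a1 and Col28a1 were not well above background on enough arrays and were not tested.

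The kidneys came from C57BL/6 embryos. The 4 KO samples, kidney pairs called DOT1-null in the labels, carried a conditional knockout of Dot1 in nephron progenitor cells that express Six2. The 4 WT samples were control kidney pairs of the same strain and age. The labels used here name neither the allele nor the driver of the deletion, and cells outside that lineage, such as stroma, endothelium and ureteric bud, keep the gene. Each sample was labelled in red and hybridised with green-labelled RNA of the WT1 kidneys, so a value is the log2 ratio of a sample over WT1 RNA, and the WT1 array measured 1 RNA against itself.

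Fibrillar collagens such as types I and III form the cables of the interstitium and are made mainly by stromal cells and fibroblasts. Type IV collagen forms the sheet of every basement membrane. Its Col4a1 and Col4a2 chains are laid down first and everywhere, the Col4a3, Col4a4 and Col4a5 chains build the mature glomerular basement membrane and come from podocytes, and the Col4a5 and Col4a6 chains are found together in Bowman's capsule and around collecting ducts. Other collagens decorate fibrils, form beaded filaments or span the cell membrane.

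The WT1 and KO1 arrays stood apart from the other 6. Their red negative-control spots had medians of 478.25 scanner units on KO1 and 1361 on WT1, against 58 to 61 on the other arrays, so results are given with and without them. On the self-hybridised WT1 array, where equal signals would give 0, the collagen log2 ratios ranged from -0.52 to 0.41 with an SD of 0.187. The KO arrays filled 1 row of the slide and the WT arrays the other, so row and genotype cannot be told apart. The probe for Dot1l, taken as the Dot1 of the labels, averaged -0.13 ± 0.07 in KO and -0.16 ± 0.08 in WT (SD, n = 4 each, log2 ratio, adjusted p = 0.924), and whether it lies in the deleted stretch was not determined. Ddx3y, on the Y chromosome, and Xist showed all 4 KO samples and WT2 to be male and WT1, WT3 and WT4 to be female, with Ddx3y log2 ratios of 2.31 to 3.19 in KO and 3.29 in WT2, against -0.11 to 0.08 in the female samples.

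Most collagen genes had a higher mean in KO than in WT kidneys, by small amounts. The difference was above 0 for 34 of 36 collagens (94.4%), against 8299 of 13987 genes (59.3%). The median difference was 0.23 on the log2 scale for collagens and 0.03 for all genes. Col1a1, a chain of the main fibrillar collagen, and Col4a5 and Col4a6, chains of basement membranes, passed the test as higher in KO, and no collagen passed as lower. Over all genes, 2.12% passed, 1.57% as higher and 0.543% as lower (limma, Benjamini-Hochberg adjusted p under 0.05). An unadjusted p under 0.05 was found for 18 of 36 collagens and for 2031 of all genes (14.5%).

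The 4 KO and 4 WT values did not overlap for 9 collagens. Of these, Col1a1, Col3a1, Col24a1, Col4a3, Col4a5, Col4a6, Col8a2 and Col9a1 were higher in every KO sample, and Col13a1, a membrane-spanning collagen, was lower in every KO sample. These counts include WT1 and KO1. At Col13a1, Col24a1 and Col4a3 the red signal on WT1 was 18048, 6670 and 3271 scanner units. On KO2 to KO4 and WT2 to WT4 it was 120 to 209, 149.5 to 233 and 130.5 to 188.5. Among all genes, 9.27% did not overlap, 6.81% higher and 2.46% lower. With the replicate number as a block, 7 collagens passed, the 3 above with Col3a1, Col6a1 and Col8a2 as higher and Col13a1 as lower, beside 3.17% of all genes as higher and 0.794% as lower. Without WT1 and KO1, Col4a5 and Col4a6 passed and Col1a1 did not (adjusted p = 0.106), beside 1.26% of all genes as higher and 0.5% as lower. With both changes 6 passed, namely Col3a1, Col4a5, Col4a6, Col8a2 and Col14a1 as higher and Col11a2 as lower, beside 3.71% of all genes. With median centring in place of loess no collagen passed, and 0 of all 13987 genes did. With the ratios of the scanner software Col4a6 alone passed, beside 123 of 13987 genes. In whole-kidney RNA, more cells of a type and more RNA per cell cannot be told apart.

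**Figure D1:**
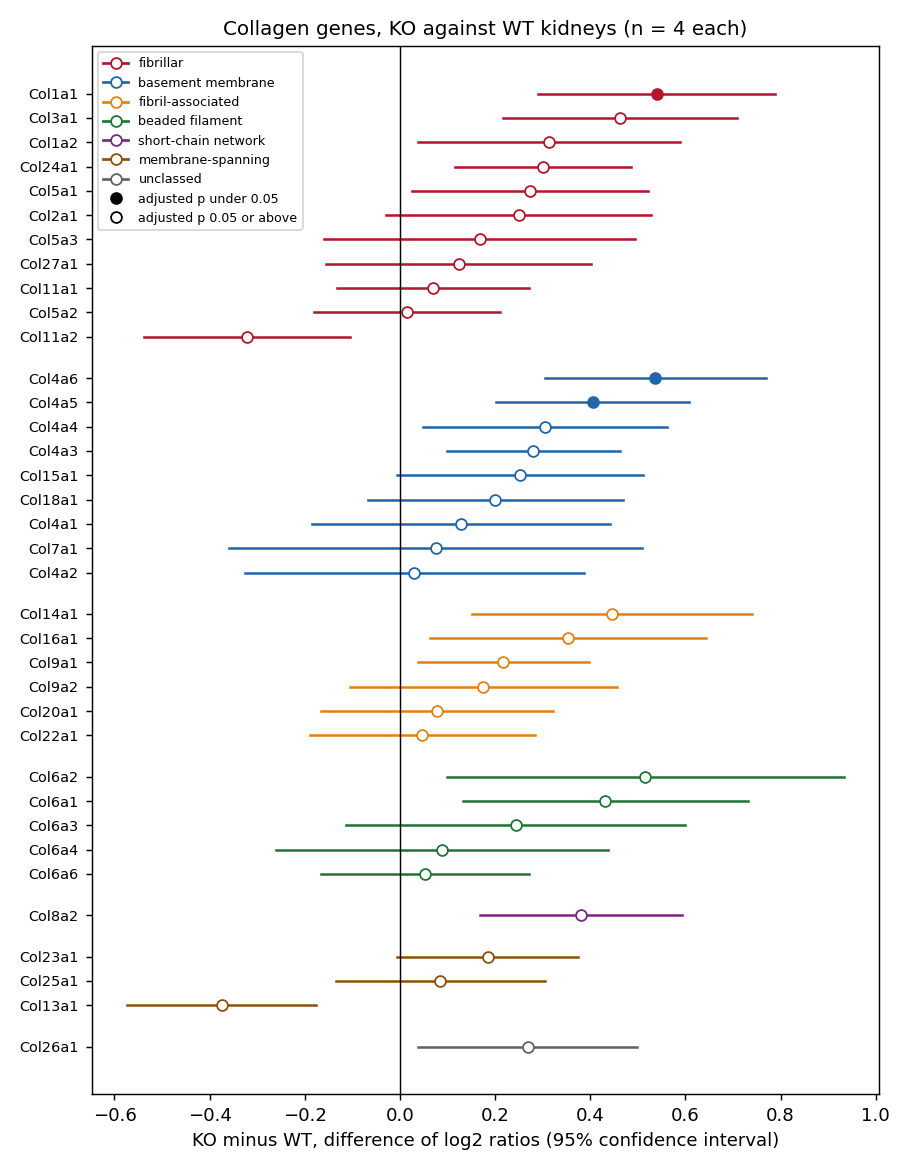
Difference of the mean log2 ratio, KO minus WT, for the 36 collagen genes tested (x axis, log2), grouped and coloured by class, with 95% confidence intervals from limma and 4 arrays per group. Filled points mark Col1a1, Col4a5 and Col4a6, which passed the test, and only Col11a2 and Col13a1 lie below 0.

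The 3 classes had similar medians. Fibrillar collagens had a median difference of 0.25, with 10 of 11 above 0 and 1 called. Basement membrane collagens also had a median of 0.25, with 9 of 9 above 0 and 2 called. The other 16 had a median of 0.20, with 15 above 0 and none called. Without WT1 and KO1 the medians were 0.14 for fibrillar, 0.26 for basement membrane and 0.17 for other collagens. With sex as a term, which sets the KO arrays against the male WT2 alone, they were 0.029 for fibrillar, 0.051 for basement membrane and 0.10 for other collagens.

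The class medians followed particular arrays as well as genotype. For fibrillar collagens they were 0.16, 0.21, 0.36 and 0.26 on KO1 to KO4, against -0.0031, 0.28, -0.03 and 0.07 on WT1 to WT4. WT2 thus lay within the KO range. For basement membrane collagens the medians were -0.0034, 0.18, 0.40 and 0.10 on KO1 to KO4, against -0.07, 0.07, -0.12 and -0.21 on WT1 to WT4. Here KO1 lay below WT2, and the groups overlapped again. KO3 was the highest KO array for 22 of 36 collagens and for 8 of the 9 in basement membranes, and WT2 was the highest WT array for 20 of 36.

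**Figure D2:**
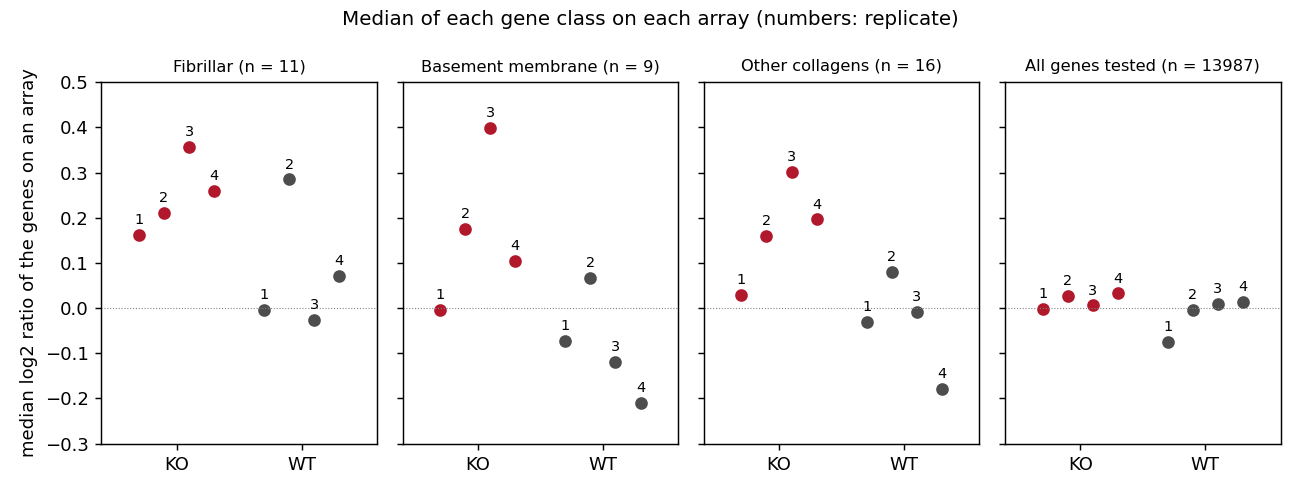
Median log2 ratio of the genes of each class on each array (y axis, log2 ratio over WT1 RNA), KO arrays left and WT arrays right, with the replicate number above each point. KO3 is the highest array in the 3 collagen panels, WT2 is the highest WT array in them, and all genes together stay between -0.07 and 0.03.

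Among the fibrillar collagens, Col1a1 encodes the more abundant chain of type I collagen. It had log2 ratios of 0.55, 0.21, 0.59 and 0.27 in KO samples 1 to 4, against -0.07, 0.06, -0.33 and -0.19 in WT samples 1 to 4. KO1 and KO3 were the highest, and every KO value was above every WT value. The difference was 0.54 ± 0.11 (SE, adjusted p = 0.0327), or 1.45-fold. It passed without KO2 or without WT2, but not without any of the other 6 arrays singly (adjusted p up to 0.0927). Col1a2, the partner chain, had 0.61, 0.72, 0.84 and 0.54 in KO, against 0.41, 0.72, 0.19 and 0.13 in WT. WT2 reached the KO range here, and the difference of 0.31 ± 0.13 did not pass (adjusted p = 0.265).

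Col3a1 encodes type III collagen, which mixes with type I in soft tissues. Its log2 ratios were 0.55, 0.17, 0.54 and 0.33 in KO, against 0.17, -0.21, -0.06 and -0.16 in WT. The groups did not overlap, although KO2 and WT1 nearly met. The difference of 0.46 ± 0.11 missed the threshold (adjusted p = 0.0585) and passed with the replicate block (adjusted p = 0.0137).

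Type V collagen, which starts fibrils and limits their width, gave no call. Col5a1 had 0.22, 0.48, 0.36 and 0.15 in KO, against -0.14, 0.30, -0.11 and 0.07 in WT, a difference of 0.27 ± 0.11 (adjusted p = 0.287). KO1 and KO4 lay below WT2. Col5a2 had -0.22, -0.13, 0.01 and -0.21 in KO, against 0.0037, -0.22, -0.20 and -0.18 in WT, with a difference of 0.01 ± 0.09. The 2 groups covered the same range for Col5a2, the gene next to Col3a1 on chromosome 1. Col5a3 had 0.06, 0.04, 0.29 and 0.36 in KO, against -0.18, 0.36, -0.35 and 0.25 in WT, and its values were less spread in KO than in WT (SD 0.162 in KO and 0.340 in WT).

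The remaining fibrillar collagens are known mainly from cartilage and bone. Col24a1 had 0.16, 0.39, 0.42 and 0.31 in KO, against -0.0031, 0.03, -0.03 and 0.08 in WT. All KO values were higher, with a difference of 0.30 ± 0.08 that did not pass (adjusted p = 0.102). Col11a2, a chain of the type XI collagen of cartilage, had 0.04, -0.21, -0.33 and -0.26 in KO, against 0.11, 0.28, 0.08 and 0.03 in WT. KO2, KO3 and KO4 were below every WT value, and KO1 was level with WT4, with a difference of -0.32 ± 0.10 (adjusted p = 0.138). Col2a1, the main cartilage collagen, differed by 0.25 ± 0.13, Col27a1 by 0.12 ± 0.13 and Col11a1 by 0.07 ± 0.09, none of them called.

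All 6 type IV collagen genes had a difference above 0, with a median of 0.29, and the calls fell on the X-linked pair. Col4a6 had log2 ratios of 0.42, 0.81, 0.74 and 0.58 in KO, against -0.07, 0.07, 0.16 and 0.25 in WT. KO2 was the highest, and even the lowest KO value was above the highest WT value. The difference was 0.54 ± 0.11 (adjusted p = 0.0232), or 1.45-fold, and 0.55 ± 0.10 without WT1 and KO1 (adjusted p = 0.0321). A second, dimmer probe of Col4a6 that was also kept differed by -0.01. Its red signal was 102 to 142 scanner units on KO2 to KO4 and 103 to 137 on WT2 to WT4. The brighter probe read 480.5 to 813 and 433 to 630 there. The call thus rests on the brighter of 2 probes that disagree, and their mean did not pass (adjusted p = 0.137). The call held without KO1, WT3 or WT4 and was lost without any other single array (adjusted p up to 0.0737).

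Col4a5 had log2 ratios of 0.12, 0.08, 0.19 and 0.14 in KO, against -0.08, -0.45, -0.22 and -0.34 in WT. The KO values lay close together (SD 0.0445 in KO and 0.160 in WT), and the groups did not overlap. The difference was 0.40 ± 0.09 (adjusted p = 0.0462), or 1.32-fold, and 0.47 ± 0.09 without WT1 and KO1 (adjusted p = 0.0420). Of the 8 fits that left out a single array, it passed in the one without WT1 (adjusted p 0.0293 to 0.152 over the 8). Its red signal, which carries the sample, was 675 to 1162 scanner units on KO2 to KO4 and 826 to 1206.5 on WT2 to WT4. Its green signal, from the same WT1 RNA on every array, was 347 to 378 on KO2 to KO4 and 486 to 544.5 on WT2 to WT4.

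For Col4a5 the red ranges overlapped and the green ranges did not, both in scanner units without normalization. Over all genes the green signal on KO2 to KO4 was a median 0.859 of that on WT2 to WT4, and for Col4a5 it was 0.714, the lowest ratio of the 36 collagens. Green was lower on each of KO2 to KO4 than on each of WT2 to WT4 for 21 of 36 collagens (58.3%). Among all genes this held for 61.7%. Col4a6, Col3a1 and Col8a2 were among these collagens, and their red ranges overlapped as well. For these genes and for Col4a5, KO3 had the lowest red signal of KO2 to KO4. No share over all genes was computed for the red ranges. In the red channel alone, without WT1 and KO1, the difference was 0.20 for Col4a5 (adjusted p = 0.299), 0.49 for Col4a6 (adjusted p = 0.0545) and 0.44 for Col1a1 (adjusted p = 0.218). The part of the green channel in these calls was not tested further.

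Col4a3 and Col4a4, neighbours on chromosome 1 whose products join Col4a5 in the glomerular basement membrane, were not called. Col4a3 had 0.19, 0.30, 0.33 and 0.30 in KO, against 0.04, -0.05, -0.10 and 0.12 in WT. Every KO value was higher, with a difference of 0.28 ± 0.08 (adjusted p = 0.119). Col4a4 had 0.0060, 0.18, 0.56 and 0.10 in KO, against 0.06, -0.13, -0.12 and -0.17 in WT. KO1 lay below WT1, and the difference was 0.31 ± 0.12 (adjusted p = 0.243).

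Col4a1 and Col4a2, the chains of all basement membranes, showed the smallest differences of the type IV genes. Col4a1 had -0.16, 0.25, 0.34 and -0.08 in KO, against -0.19, 0.34, -0.12 and -0.21 in WT, a difference of 0.13 ± 0.14. Col4a2 had -0.29, 0.02, 0.40 and -0.29 in KO, against -0.04, 0.29, -0.25 and -0.28 in WT, a difference of 0.03 ± 0.16. In both genes KO3 and WT2 were the highest of their groups, and the groups overlapped almost fully. Whether the calls on Col4a5 and Col4a6 differ in size from Col4a1 and Col4a2 was not tested.

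**Figure D3:**
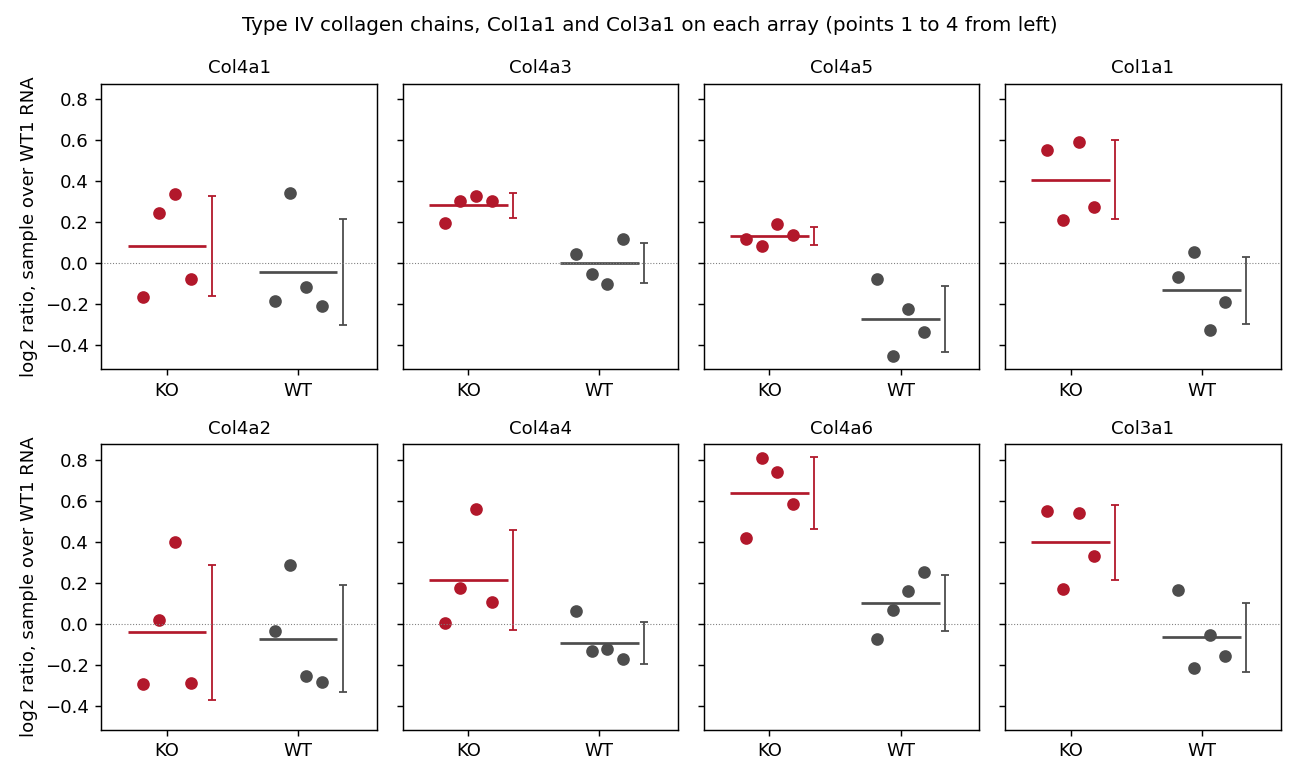
Log2 ratio of a sample over WT1 RNA (y axis) for the 6 type IV collagen genes, Col1a1 and Col3a1, in KO (left, red) and WT (right, grey) kidneys. Points are arrays 1 to 4 from left to right, horizontal lines are means and vertical bars the SD (n = 4). Col4a3, Col4a5, Col4a6, Col1a1 and Col3a1 show no overlap of the groups, while Col4a1 and Col4a2 share their range.

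Type IV genes lie head to head in pairs and are read away from each other. The promoters of the pair that was called and of the pair with the smallest differences are shown for comparison. Each covers 250 bases before to 50 bases after the RefSeq start site in GRCm38.p6, written 5′ to 3′ on the gene's own strand, and capitals mark the CCAAT box, the GC box (GGGCGG) and the TATA box (TATAAA) on either strand.
Col4a5 (chrX:141475169-141475468, plus strand): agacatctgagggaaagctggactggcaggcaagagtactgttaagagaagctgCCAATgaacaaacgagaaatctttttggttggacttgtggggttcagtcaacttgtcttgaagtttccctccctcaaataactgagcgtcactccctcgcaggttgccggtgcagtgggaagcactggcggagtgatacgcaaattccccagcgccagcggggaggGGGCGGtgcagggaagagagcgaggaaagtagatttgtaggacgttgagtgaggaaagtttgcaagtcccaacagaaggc
Col4a6 (chrX:141474027-141474326, minus strand): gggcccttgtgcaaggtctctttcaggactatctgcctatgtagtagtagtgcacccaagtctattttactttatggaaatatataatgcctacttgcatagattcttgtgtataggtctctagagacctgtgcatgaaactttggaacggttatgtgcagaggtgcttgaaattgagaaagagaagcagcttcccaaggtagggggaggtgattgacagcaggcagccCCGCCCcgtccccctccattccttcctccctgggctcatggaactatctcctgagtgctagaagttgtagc
Col4a1 (chr8:11312777-11313076, minus strand): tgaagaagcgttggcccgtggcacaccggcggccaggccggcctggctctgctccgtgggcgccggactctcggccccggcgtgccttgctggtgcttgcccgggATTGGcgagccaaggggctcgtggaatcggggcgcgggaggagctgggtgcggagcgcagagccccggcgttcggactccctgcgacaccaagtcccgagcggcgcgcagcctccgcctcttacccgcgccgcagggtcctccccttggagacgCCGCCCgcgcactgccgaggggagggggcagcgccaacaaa
Col4a2 (chr8:11312555-11312854, plus strand): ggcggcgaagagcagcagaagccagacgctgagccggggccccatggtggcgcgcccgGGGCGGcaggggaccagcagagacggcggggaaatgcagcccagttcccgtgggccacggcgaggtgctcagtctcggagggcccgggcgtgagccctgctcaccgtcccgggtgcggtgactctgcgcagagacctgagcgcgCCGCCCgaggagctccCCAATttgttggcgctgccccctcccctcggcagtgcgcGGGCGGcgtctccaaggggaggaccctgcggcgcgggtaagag
The annotated starts of Col4a5 and Col4a6 were 1343 bases apart, and their windows shared no base. Those of Col4a1 and Col4a2 were 21 bases apart, and their windows shared 78 bases, read on opposite strands. The GC content was 52.7% for Col4a5 and 48.3% for Col4a6, and 74% for Col4a1 and 73.7% for Col4a2.

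CCAAT occurred once in the windows of Col4a5, Col4a1 and Col4a2, GGGCGG once in those of Col4a5, Col4a6 and Col4a1 and 3 times in that of Col4a2, and TATAAA in none of the 4. The GGGCGG of Col4a1 lay in the bases shared with Col4a2 and was the same site as the last of the 3 there. Of all 32851 promoters in the table, 37.4% held CCAAT, 35.7% GGGCGG and 13.6% TATAAA on either strand. The table had entries for 29 of the 36 tested collagen genes, and Col1a1 and Col4a3 were not among them.

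The other basement membrane collagens were not called. Col7a1, of the anchoring fibrils under epithelia, differed by 0.08 ± 0.20. Col15a1 differed by 0.25 ± 0.12 and Col18a1, the source of endostatin, by 0.20 ± 0.12. For Col18a1 the 2 kept probes lay close together, at 0.20 and 0.21. Of the 9 collagens with several kept probes, 3 had all of them within 0.15 of each other.

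Type VI collagen, which forms beaded filaments around cells, included the third largest of the 36 differences, at Col6a2, without a call. Col6a1 had 0.11, 0.30, 0.74 and 0.30 in KO, against -0.28, 0.15, 0.05 and -0.19 in WT, a difference of 0.43 ± 0.14 (adjusted p = 0.148, and 0.0386 with the replicate block). Col6a2, its neighbour on chromosome 10, had -0.28, 0.21, 0.70 and 0.13 in KO, against -0.52, 0.09, -0.27 and -0.60 in WT, a difference of 0.52 ± 0.19 (adjusted p = 0.222). In both genes KO3 was far above the other KO samples and KO1 below WT2.

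Col6a3, the third of the classical chains, had -0.33, 0.07, 0.59 and 0.03 in KO, against -0.35, 0.07, -0.09 and -0.24 in WT, with KO3 again the highest. Its difference was 0.24 ± 0.16. The later chains Col6a4 and Col6a6 differed by 0.09 ± 0.16 and 0.05 ± 0.10. For Col6a4 the KO samples ran from -0.50 on KO3 to 0.43 on KO4, on both sides of all WT values, and for Col6a6 from 0.03 to 0.36, against 0.02 to 0.33 in WT.

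Of the fibril-associated collagens, which sit on the surface of fibrils, none was called and all 6 had a difference above 0. Col14a1 had -0.08, 0.10, 0.34 and -0.19 in KO, against -0.18, -0.24, -0.51 and -0.67 in WT, a difference of 0.45 ± 0.14 (adjusted p = 0.128). KO4 and WT1 were almost equal, and a second probe of this gene differed by 0.04. Col16a1 had 0.03, 0.13, 0.54 and 0.02 in KO, against -0.27, 0.07, -0.09 and -0.41 in WT, a difference of 0.35 ± 0.13 (adjusted p = 0.229). KO1 and KO4 lay below WT2.

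Col9a1, a chain of the type IX collagen of cartilage, had 0.42, 0.26, 0.30 and 0.43 in KO, against 0.05, 0.15, 0.13 and 0.22 in WT. The groups did not overlap, but the difference was only 0.22 ± 0.08 (adjusted p = 0.231). Col9a2, Col20a1 and Col22a1 differed by 0.18, 0.08 and 0.05.

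Col8a2, of the short-chain type VIII collagen found in vessel walls and the cornea, had 0.23, 0.08, 0.11 and 0.28 in KO, against -0.0050, -0.39, -0.19 and -0.24 in WT. Every KO value was above 0 and every WT value below it. The red signal was 507 to 900 scanner units on KO2 to KO4 and 575 to 829 on WT2 to WT4. The green signal was 254 to 279 on KO2 to KO4 and 323 to 364 on WT2 to WT4, so only the green ranges were apart. The difference of 0.38 ± 0.10 missed the threshold (adjusted p = 0.0693) and passed with the replicate block (adjusted p = 0.0386), but a second, dimmer probe differed by -0.07. The red signal of that probe was 78 to 114 on KO2 to KO4 and 79.5 to 104.5 on WT2 to WT4.

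The membrane-spanning collagens went both ways. Col13a1, found at sites of cell adhesion, had -0.12, -0.31, -0.15 and -0.39 in KO, against 0.14, 0.25, 0.08 and 0.06 in WT. All KO values were below 0 and all WT values above it, with a difference of -0.37 ± 0.09 (adjusted p = 0.0585, and 0.0456 with the replicate block). Its red signal was 120 to 137 scanner units on KO2 to KO4 and 162 to 209 on WT2 to WT4, without overlap. On KO1 and WT1 it was 1590 and 18048. The red negative controls of KO2 to KO4 and WT2 to WT4 had medians of 58 to 61, so the probe was dim. Col23a1 had 0.36, 0.43, 0.49 and 0.31 in KO, against 0.07, 0.21, 0.23 and 0.34 in WT, and KO4 lay below WT4. Its difference was 0.18 ± 0.09 (adjusted p = 0.363), and Col25a1, the third of this class, differed by 0.09 ± 0.10.

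Col26a1, placed in no class, had 0.35, 0.27, 0.04 and 0.23 in KO, against -0.29, -0.04, 0.12 and 0.01 in WT. KO3, the highest KO array for most collagens, was the lowest KO array here, and the difference was 0.27 ± 0.11 (adjusted p = 0.253).

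Because all KO samples and only WT2 among the WT samples were male, the collagens were also compared with the male and the female WT arrays apart. Against the 3 female WT arrays the KO mean was higher for 33 of 36 collagens, with a median difference of 0.28. Against the male WT2 array it was higher for 24 of 36, with a median of 0.07. WT2 itself was above the mean of the female WT arrays for 25 of 36 collagens by a median of 0.21, while over all genes that median was 0.01. With 1 male WT array, sex and the individual sample cannot be told apart.

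The collagens differed in how they stood against WT2. The difference to WT2 was 0.58 for Col4a5, 0.57 for Col4a6 and 0.35 for Col1a1, the called genes. It was 0.61 for Col3a1 and 0.57 for Col8a2. In all of these the groups did not overlap, so each KO sample was above WT2 by definition. The difference to WT2 was -0.04 for Col1a2, -0.26 for Col4a1, -0.33 for Col4a2 and -0.48 for Col7a1. None of these was called, and their differences to the female arrays were all above 0. With sex as a term in the model, no collagen passed and 12 of all genes did (0.0858%). The adjusted p was then 0.158 for Col4a5, 0.261 for Col4a6 and 0.452 for Col1a1.

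**Figure D4:**
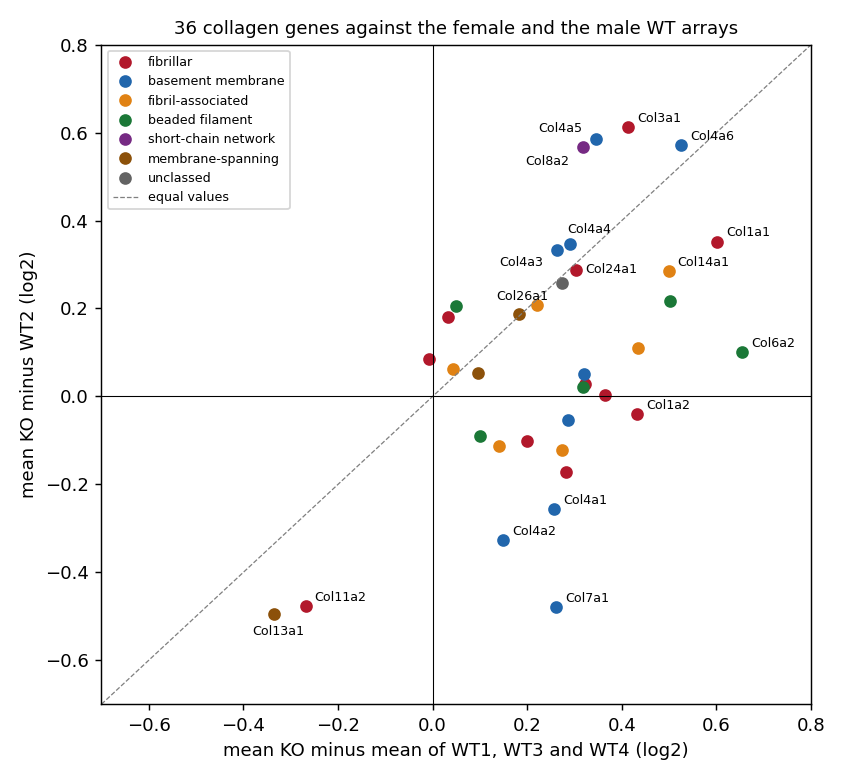
Each point is 1 of the 36 collagen genes, coloured by class. The x axis is the KO mean minus the mean of the 3 female WT arrays and the y axis the KO mean minus the male WT2 array, both in log2, with a dashed line of equal values. Col4a5, Col4a6, Col3a1 and Col8a2 are above 0.5 on the y axis, while Col4a1, Col4a2 and Col7a1 are above 0 on the x axis and below 0 on the y axis.

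The lists of genes that make, cut, bind and degrade collagen held 24, 15, 11 and 12 tested genes and gave 1 call, as higher. Over all genes 1.57% passed as higher. Tgm2, Adgrg1 and Itga11 were added with the replicate block, where 3.17% of all genes passed as higher. None of the 24 assembly enzymes and chaperones passed, with a median of 0.12 and 22 above 0. The smallest p values there belonged to Mia2, which helps load procollagen into transport carriers, at 0.36 ± 0.10 (adjusted p = 0.115), and P4ha2, a prolyl hydroxylase subunit, at 0.40 ± 0.15 (adjusted p = 0.242). None of 15 genes for processing and crosslinking passed, with a median of 0.13. Tgm2, a crosslinking transglutaminase, came nearest at 0.46 ± 0.11 (adjusted p = 0.0564) and passed with the replicate block (adjusted p = 0.0386), followed by Adamts2, the procollagen N-proteinase, at 0.36 ± 0.10 (adjusted p = 0.102, and 0.0965 with the block).

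Of 11 collagen receptors, 10 had a difference above 0, with a median of 0.18, and Mrc1, the mannose receptor of macrophages, passed at 0.56 ± 0.08 (adjusted p = 0.00553). It had 0.33, 0.47, 0.54 and 0.40 in KO, against -0.16, -0.12, -0.06 and -0.14 in WT, a wide gap between the groups. Adgrg1, an adhesion receptor for type III collagen, differed by as much, at 0.55 ± 0.14 without overlap (adjusted p = 0.0598, and 0.00808 with the replicate block). Itga11, an integrin subunit for fibrillar collagens, was at 0.43 ± 0.12 without overlap (adjusted p = 0.0898, and 0.0330 with the block). None of 12 genes of collagen breakdown passed, with a median of 0.16. Mmp9, a gelatinase, was at 0.26 ± 0.09 and Ctsl, a lysosomal protease, at 0.24 ± 0.09. None of 11 genes of TGF-beta signalling, a known inducer of collagen genes, passed. Tgfbr2, a receptor, was at 0.31 ± 0.09 and Tgfb3, a ligand, at 0.29 ± 0.09, with a list median of 0.11.

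Some other matrix genes were called as well. Among 24 further basement membrane genes, 3 rose and none fell, with a median of 0.19. These were Smoc2 at 0.65 ± 0.10 (adjusted p = 0.00857), Frem1 at 0.57 ± 0.09 (adjusted p = 0.0106), which anchors epithelia during development, and Nid1 at 0.47 ± 0.10 (adjusted p = 0.0383), the nidogen that links laminin to type IV collagen. Among 29 further interstitial matrix genes, 4 rose and none fell, with a median of 0.17. With the replicate block the numbers that passed were 4 and 6. Over all genes, 1.57% passed as higher, or 3.17% with the block.

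Those 4 were small proteoglycans and a microfibril protein. Ogn, or osteoglycin, had 0.58, 0.40, 0.29 and 0.50 in KO, against -0.32, -0.28, -0.14 and -0.28 in WT (difference 0.70 ± 0.09, adjusted p = 0.00311). Dcn, or decorin, which binds type I collagen fibrils, had 0.71, 0.46, 0.46 and 0.53 in KO, against 0.12, -0.03, 0.10 and -0.14 in WT (difference 0.53 ± 0.09, adjusted p = 0.0150). Lum, or lumican, had 1.02, 0.55, 0.64 and 0.57 in KO, against -0.30, 0.18, 0.08 and 0.03 in WT (difference 0.70 ± 0.13, adjusted p = 0.0169). Mfap5 differed by 0.67 ± 0.14 (adjusted p = 0.0328). In all 4 the groups did not overlap, and in Ogn, Dcn and Lum KO1 was the highest sample, unlike in most collagens.

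Marker lists of kidney cell types differed in how they compared between KO and WT. Over all genes, 1.57% passed as higher and 0.543% as lower, or 3.17% and 0.794% with the replicate block. Stromal markers had a median difference of 0.29, with 10 of 12 above 0. Pdgfrb, at -0.02, and Meis2, at -0.03, were below 0. Of the 12, 3 passed as higher, or 5 with the replicate block. The 3 were Pdgfra at 0.73, Smoc2 (also a basement membrane gene above) at 0.65 and Penk at 0.55. The stromal median on an array was 0.18 to 0.40 in KO and -0.14 to 0.05 in WT. Macrophage markers had a median of 0.29, with 3 of 7 higher, Mrc1 of the receptors above among them, and array medians of 0.21 to 0.37 in KO and -0.17 to 0.03 in WT. Podocyte markers had a median difference of 0.00 and array medians of -0.20 to -0.05 in KO and -0.16 to 0.06 in WT, with none of 8 higher and 1 lower. Endothelial markers had a median of 0.07, with none of 9 called and array medians of -0.11 to 0.10 in KO and -0.15 to 0.08 in WT. Cdh5 among them passed as higher with the replicate block. Markers of the ureteric bud and collecting duct had a median of 0.26, with 6 of 8 above 0 and none called, and array medians of -0.13 to 0.10 in KO and -0.21 to -0.07 in WT. Proximal tubule markers had the highest median of these lists, 0.44, with 6 of 6 above 0 and none called, and array medians of -0.43 to 0.73 in KO and -1.16 to -0.05 in WT. Slc27a2 among them passed as higher with the replicate block. Mural cell markers had a median of 0.16, with none of 7 called. Nephron progenitor markers, of the lineage that carried the knockout, had a median of -0.06, with none of 7 higher and 1, Cited1, lower. Their array medians were -0.30 to 0.05 in KO and -0.09 to 0.19 in WT, and Meox1 also passed as lower with the replicate block. What part any cell type had in the collagen differences was not tested.

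Tissue from outside the kidney was also looked for. Of 7 skeletal muscle markers only Tnnt3 was well enough above background to be tested, and it was 0.77 higher in KO (adjusted p = 0.00923), while Myod1, Myog, Ckm, Acta1, Myh3 and Actn2 were not. Of 8 adrenal and sympathetic markers 4 were tested and none passed, with 4 above 0 and a median of 0.08. Of 6 markers of Schwann cells and nerve 4 were tested and none passed, with 3 above 0 and a median of 0.01. Of 10 cartilage and bone markers 4 were tested and none passed, with a median of 0.28. Their array medians were 0.0052 to 0.32 in KO and -0.17 to 0.01 in WT. Matn1, Matn3, Chad, Runx2, Ibsp and Bglap were too dim, and of those tested Ihh, a signal of growth plate cartilage, differed by 0.54 (adjusted p = 0.220), Comp, a cartilage matrix protein, by 0.52 (adjusted p = 0.0723), Acan, the main cartilage proteoglycan, by 0.03 and Sp7 by 0.0093. Whether the signal of Ihh or of the others came from outside the kidney was not tested. Their part in the values of Col2a1, Col9a1 and Col24a1 was not tested either.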

How the data were processed

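Per the labels' protocols, total RNA of kidney pairs was amplified linearly and labelled with Cy5, and the WT1 RNA with Cy3, with no dye swap. The deposited scanner output came from Agilent Feature Extraction 10.7.3.1, as the submitters' processing notes say. It holds, per the file headers, median red and green spot intensity and local background without normalization, and flags of 0 or 1 for spots well above background. The deposited log10 ratios of the scanner software, and the deposited value table of the whole series with the same log10 ratios to within 0.0050, served as alternatives.

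In R 4.3.3 with limma 3.58.1, normexp with an offset of 50 removed the background, and loess within each array evened out the dyes. Spots of a probe were averaged, outlier readings left out (none of a collagen probe), and no spot was saturated. A probe was kept if well above background in red on at least 4 of 8 arrays. Of 29150 probes with a RefSeq accession, 27509 were named through the RefSeq table of GRCm38.p6. The brightest kept probe stood for a gene, and 9 collagens had several. KO and WT were compared with lmFit and eBayes over 13987 genes, with Benjamini-Hochberg adjustment at 0.05. SE is the moderated standard error with 4 arrays per group, and the number of arrays limits the precision. Embryos with a Ddx3y log2 ratio above 1 were taken as male. The slide was scanned on 1 date.

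The design names the KO and WT samples biological replicates. Same-numbered KO and WT arrays, which share a slide column, had correlated deviations from their group means (r of 0.138, 0.374, 0.258 and 0.304 over genes). KO1 correlated more with WT4 (r = 0.369) and KO3 with WT2 (r = 0.308), so the values bear out the pairing by number only in part. The fit with the replicate number as a block is given where it changed the call of a named gene. In simulated data for this comparison over 13965 genes, 65 of 100 genes changed by 0.5 and 98 of 100 changed by 1 were recovered, with 13 false calls.

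The collagen genes, the gene lists and the rule for named genes were chosen with earlier results of these data known. The rule gave array values for collagens that passed or did not overlap, the 2 smallest p of each class, and types I, III, IV, V and VI. From each pathway list it gave up to 5 members that passed or the 2 smallest p. Other collagens, among them Col11a2, and the other lists' members were named after their values were seen. Lists are described by counts and medians, with no test. The alternatives were the scanner ratios, the value table, median centring, the red channel alone, an offset of 10, 2 other filters, probe means, the replicate block, leaving out WT1 and KO1, the embryos' sex in the model, and leaving out each array.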

Additional observations from a re-analysis of the deposited data

Results flagged for a closer look

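Of 78 checks of a sample against the rest of its group, 1 passed Dixon's test for an outlier among 4 samples, where chance would flag about 1 in 20. Col4a1 had a log2 ratio of 0.34 on the WT2 array, against -0.19, -0.12 and -0.21 on the other WT arrays. WT2 was also the highest WT array for Col4a2 and Col7a1.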

How the results depend on the processing

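Over 42 named genes and 958 alternative values, 788 kept direction and side of the threshold, 123 lost the call, 19 gained one and 28 changed sign. The number of collagens called was 3, and it was 1 with the ratios of the scanner software, the value table or an offset of 10 (Col4a6 each time), 0 with median centring, the red channel alone or the embryos' sex in the model, 7 with the replicate block, 6 with that block and without WT1 and KO1, and 0 to 3 when single arrays were left out. No collagen passed without KO3 or without KO4. Over all genes, 296 passed, and 123 did with the scanner ratios or the value table, 0 with median centring (178 at an unadjusted p under 0.05), 1 with the red channel alone, 554 with the replicate block, 519 with the block and without WT1 and KO1, 12 with sex as a term, and 83 to 345 with single arrays left out. In alternatives added after the data were seen, all without WT1 and KO1, no collagen passed with sex as a term, the red channel alone or median centring, and 6, 150 and 10 genes passed in all. The fibrillar median of 0.25 was 0.375 with the scanner ratios, 0.376 with the value table, 0.029 with sex as a term (0.032 without WT1 and KO1) and 0.11 to 0.30 with single arrays left out. It was lowest without WT1. The basement membrane median of 0.25 was 0.051 with sex as a term and 0.15 to 0.31 with single arrays left out, lowest without KO3. Signs changed as follows. With sex as a term 12 of 36 collagens were below 0, with or without WT1 and KO1, and 10 of them had moved there from above 0. Of these 10, Col7a1 was at -0.48, Col9a2 at -0.12, Col20a1 at -0.11, Col27a1 at -0.10 and Col18a1 at -0.054. Col1a2 was at -0.041, Col4a1 at -0.26, Col4a2 at -0.33, Col5a3 at -0.17 and Col6a6 at -0.089, and without WT1 and KO1 these last 5 were -0.019, -0.17, -0.24, -0.13 and -0.018. With the red channel alone, where the median of all genes was 0.22, Col4a4 was at -0.16, Col5a2 at -0.35, Col6a4 at -0.020, Col6a6 at -0.75, Col9a1 at -0.15 and Adamts2 at -0.013, and without WT1 and KO1 Col5a2 was at -0.014. Col6a4 was at -0.019 with the scanner ratios and -0.018 with the value table, and Col5a2 at -0.0067 with median centring. With single arrays left out Col4a2 ranged from -0.12 to 0.15, Col5a2 from -0.034 to 0.065, Col6a4 from -0.073 to 0.24 and Col6a6 from -0.0024 to 0.13. Col1a1, Col4a5 and Col4a6 were above 0 in each of the 23 alternatives and passed in 6, 7 and 11 of them. The causes were not tested. Among the 42 named genes the replicate block changed 5 calls, Col3a1, Col6a1, Col8a2, Col13a1 and Tgm2, each gained. Dim collagen probes, such as those of Col11a1, Col4a3, Col11a2 and Col13a1, limit what 4 arrays per group can show.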
